A study of Homo sapiens with 20 samples.

Results

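Secondary tumorspheres of the NNMT knockout pools KOd and KOs were compared with each other, using 6 of the 20 libraries of the series: 3 of KOd and 3 labelled KOs, assigned by their titles. Both pools were made from SUM159PT, an established triple-negative breast cancer line of mesenchymal character. KOd cells had received 2 sgRNAs that remove exon 1 of NNMT, and KOs cells 1 sgRNA at its transcription start site. Each pool was a mixture of several clones, so a trait of the founding clones and an effect of the edit cannot be told apart within this comparison. All tumorspheres (3D) grew for 2 rounds of 6 days in ultra-low attachment plates with B27, 20 ng/mL EGF and 20 ng/mL basic FGF. Unedited cells (wt 3D, n = 3) and the same pools grown adherently with serum, insulin and hydrocortisone (KOd 2D and labelled KOs 2D, n = 3 each) are set beside them where stated.

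NNMT is a cytosolic enzyme that methylates nicotinamide with the methyl group of S-adenosylmethionine, which draws on both the NAD salvage pathway and the methionine cycle. The enzyme is often abundant in mesenchymal tumour cells. Tumorsphere culture selects for cells that survive and divide without attachment, and it is widely used to study stem-like cells of breast tumours.

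The KOd 3D libraries held 27810953 to 30131281 counted reads and the labelled KOs 3D libraries 37316513 to 39944290, so depth separated the groups completely. The rRNA share was 2.82% to 5.33% in KOd 3D and 1.45% to 1.88% in labelled KOs 3D. The pool and whatever set the depth and rRNA share of its libraries cannot be told apart. The wt 3D libraries, with 29824678 to 32016875 counts and an rRNA share of 5.27% to 8.46%, overlapped KOd 3D in both traits. Labelled KOs 3D stood apart from wt 3D in both, so the same limit holds where KOd lies with wt below. Labelled KOs 3D replicates differed by a median of 0.073 to 0.09 on the log2 scale per gene, while KOd 3D replicate C differed from its replicates A and B by 0.196 and these from each other by 0.117. Without KOd 3D replicate C 7188 genes were called in the comparison below, against 7710 with it. Leaving out any other single library of the 2 groups gave fewer, 6463 to 6608. Without KOd 3D replicate C, wt 3D replicate C and labelled KOs 2D replicate A together 9816 were called. Levels are counts per 1000000 scaled by the trimmed mean of M-values (TMM), written CPM, unless stated otherwise. The cell line was checked against markers: VIM, a filament protein of mesenchymal cells, had 2620, 2537 and 2801 CPM in KOd 3D and 2887, 2734 and 2775 CPM in labelled KOs 3D. Per 1000000 of the library total, the hormone receptor genes ESR1 and PGR and the epithelial genes EPCAM and CDH1 reached at most 0.324 in KOd 3D and 0.456 in labelled KOs 3D. On the same scale ERBB3 reached at most 0.531 in KOd 3D and 0.643 in labelled KOs 3D. Other markers checked for low levels were not absent. ERBB2 was at 65.9 to 75.8 in KOd 3D and 66.8 to 71.7 in labelled KOs 3D. GATA3 was at 7.34 to 10.7 in KOd 3D and 5.55 to 6.93 in labelled KOs 3D.

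NNMT (Entrez 4837, chromosome 11, 114257806 to 114313536, GRCh38.p14) was low in every KOd library and high in every library labelled KOs. It was measured at 4.64, 5.18 and 5.64 CPM in KOd 3D, at 85.1, 82.9 and 86.4 CPM in labelled KOs 3D and at 85.7, 79.5 and 129.9 CPM in wt 3D. The log2 fold change of KOd 3D over labelled KOs 3D was -4.04 ± 0.20 (SE), with an adjusted p of 1.13e-10 (edgeR quasi-likelihood test, Benjamini-Hochberg over all tested genes, as for every adjusted p below). Labelled KOs 3D overlapped wt 3D. An mRNA count does not show what an edit at the start site does to the protein, so it checks the KOd label and not the KOs label. The comparison therefore sets a pool with little NNMT mRNA against one whose NNMT mRNA overlapped wt.

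Of 16323 genes tested, 7710 differed at an adjusted p under 0.05, which is 47.2% and the background for every list below. KOd 3D was higher for 3907 genes (23.9%) and lower for 3803 (23.3%), and 2639 of them differed at least 2-fold. The median log2 fold change of all tested genes was -0.01, with quartiles of -0.38 and 0.41. In bulk RNA, fewer cells that express a gene and less of its RNA per cell cannot be told apart. The labels do not state that the replicates were separate cultures, so a p-value here speaks only of how far these libraries scatter, which may be technical.

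The largest rises in KOd 3D included genes of the extracellular matrix and of squamous epithelium. ELN, which encodes elastin (Entrez 2006, chromosome 7, 74028173 to 74069907), was measured at 102, 86.9 and 222 CPM in KOd 3D and at 0.784, 0.651 and 0.533 CPM in labelled KOs 3D, a log2 fold change of 7.70 ± 0.47 (adjusted p = 1.21e-09). Its wt 3D values of 53.8, 44.1 and 112 CPM lay on the side of KOd. TREM2, a lipid-binding receptor best known from myeloid cells, had 57.5, 64 and 83.5 CPM in KOd 3D and 0.637, 0.751 and 0.764 CPM in labelled KOs 3D (6.56 ± 0.30, adjusted p = 1.13e-10). CLCA2, a chloride channel regulator, had 123, 127 and 209.8 CPM in KOd 3D, 2.74, 2.8 and 3.08 CPM in labelled KOs 3D and 146, 159 and 116 CPM in wt 3D. For these 3 genes every KOd library was far above every library labelled KOs. In absolute level the largest gap among called genes was that of FN1, fibronectin, with 37540, 32970 and 28430 CPM in KOd 3D, 15900, 16960 and 16770 CPM in labelled KOs 3D and 33590, 33060 and 33970 CPM in wt 3D, a log2 fold change of 1.00 ± 0.20 for KOd over labelled KOs (adjusted p = 0.00053).

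The other rises among the 15 largest were SLITRK6 (5.29), a neuronal-type adhesion receptor, FAT2 (5.10), an atypical cadherin of squamous epithelium, ALDH3A1 (5.03), an aldehyde dehydrogenase, CAMK2B (5.02), a calcium-dependent kinase, and SPARCL1 (4.83), a matricellular protein. They also included ADIRF (4.75), the tetraspanin TSPAN8 (4.67), the imprinted noncoding RNA H19 (4.66), the p53 target TP53INP1 (4.52), ANXA8L1 (4.48) with its near-identical copy ANXA8 (4.27), and the metalloproteinase MMP28 (4.20), all as log2 fold changes. Counting could split reads between ANXA8 and ANXA8L1, so their separate values are uncertain. FAT2 had 164, 133 and 181 CPM in KOd 3D, 4.88, 4.28 and 4.77 CPM in labelled KOs 3D and 164, 168 and 65.4 CPM in wt 3D, so KOd overlapped wt. ADIRF differed, since wt 3D had 0.0323, 0.101 and 0.0697 CPM, below both labelled KOs 3D (1.13, 0.801 and 0.903 CPM) and KOd 3D (24.1, 23.4 and 29.3 CPM).

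The largest falls included secreted cytokines and protease inhibitors. IL24, a cytokine of the IL-10 family, had 0.672, 0.703 and 0.525 CPM in KOd 3D and 30, 29.3 and 27.6 CPM in labelled KOs 3D (-5.50 ± 0.37, adjusted p = 3.67e-09), and wt 3D had 0.42, 0.336 and 0.418 CPM. DCN, the collagen-binding proteoglycan decorin, had 3.88, 5.14 and 3.47 CPM in KOd 3D, 135, 134 and 126 CPM in labelled KOs 3D and 44.9, 45.6 and 31.2 CPM in wt 3D (KOd over labelled KOs -4.98 ± 0.18, adjusted p = 3.28e-12). The naming rule required no overlap of the 2 groups for these falls as well. The others that fell included GNAO1 (-4.60), a neuronal G protein subunit, AOX1 (-4.17), the aldehyde oxidase that oxidises the product of NNMT, PTGS2 (-4.18), the inducible prostaglandin synthase, the matrix-associated CCN4 (-4.08), the Kunitz-type inhibitor TFPI2 (-4.03) and POU2F2 (-4.16), a transcription factor best known from B cells, all as log2 fold changes. SERPINB4 (-4.53) and its close copy SERPINB3 (-4.46) fell too, and reads of these 2 could be split between them.

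**Figure D1:**
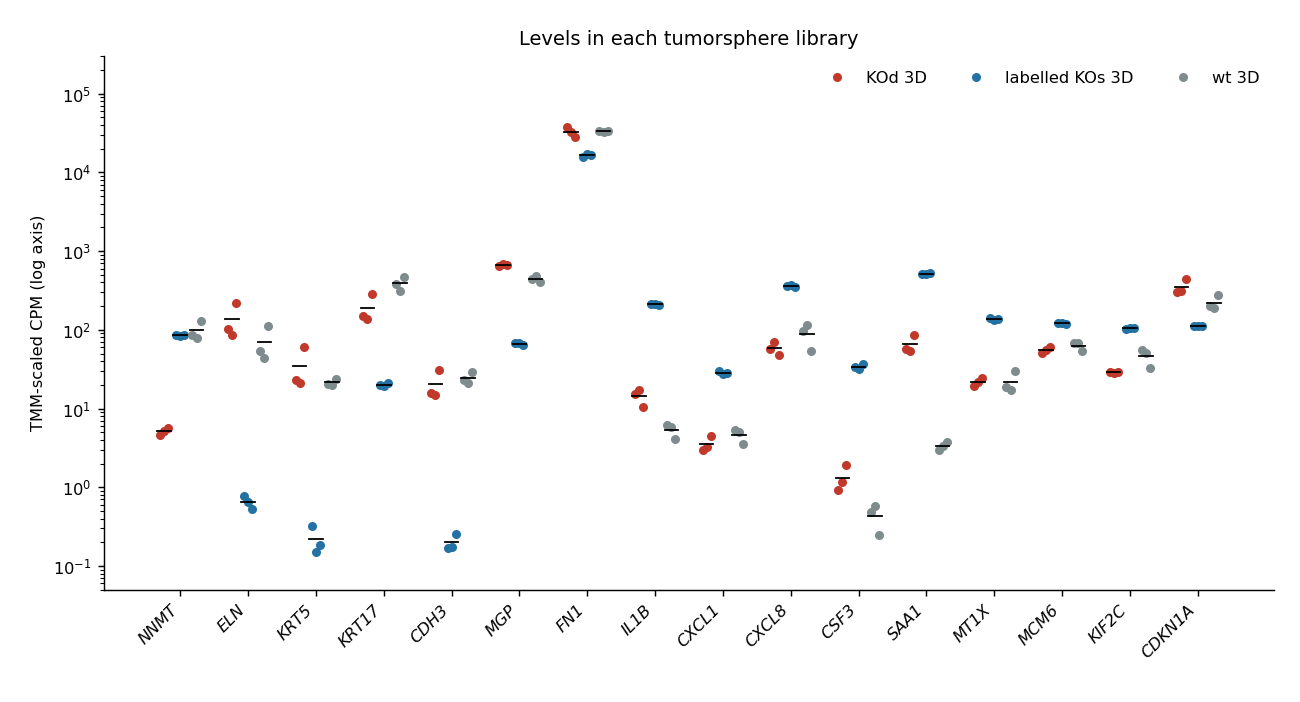
TMM-scaled CPM on a log axis for 16 genes, with 1 point per library, KOd 3D in red, labelled KOs 3D in blue and wt 3D in grey, and a bar at each mean (n = 3). KOd and labelled KOs do not overlap for any gene shown, nor do they for 66.5% of all tested genes. ELN and CSF3 were named by a rule that requires no overlap. For NNMT labelled KOs lies with wt while KOd is low.

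Neutrophil and monocyte chemokines were lower in KOd 3D. Chemokines of the CXCL1 to CXCL8 group attract neutrophils through the receptor CXCR2, and their promoters are classical targets of NF-κB. Of 10 tested members 7 fell and 2 rose, with a median log2 fold change of -1.72. CXCL8 had 57.2, 70.9 and 47.8 CPM in KOd 3D, 364, 374 and 351 CPM in labelled KOs 3D and 95.7, 116 and 53.7 CPM in wt 3D (-2.63 ± 0.47, adjusted p = 0.00017). CXCL1 had 2.93, 3.26 and 4.48 CPM in KOd 3D, 29.7, 27.8 and 28.1 CPM in labelled KOs 3D and 5.33, 5 and 3.52 CPM in wt 3D (-3.00 ± 0.17, adjusted p = 5.61e-10). The 3 libraries labelled KOs were high for both and KOd lay with wt. CXCL2 (-1.85), CXCL3 (-2.17) and CCL20 (-3.13), the ligand of CCR6, fell as well. The 2 that rose were CCL5 (1.25) and CX3CL1 (1.70).

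The promoters of 5 of the chemokines that fell are shown because all hold the same short κB-type motif close to the start site. They are the 120 bases before the start, 5′ to 3′, from RefSeq on GRCh38.p14, with matches to GGNNTTTCC on either strand in capitals.
CXCL1 (chr4:73869273-73869392, strand +): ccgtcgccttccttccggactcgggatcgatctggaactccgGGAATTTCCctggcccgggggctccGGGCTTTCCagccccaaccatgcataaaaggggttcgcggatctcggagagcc
CXCL2 (chr4:74099196-74099315, strand -): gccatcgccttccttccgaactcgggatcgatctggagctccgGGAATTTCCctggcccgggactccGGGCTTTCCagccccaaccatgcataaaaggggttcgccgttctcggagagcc
CXCL3 (chr4:74038690-74038809, strand -): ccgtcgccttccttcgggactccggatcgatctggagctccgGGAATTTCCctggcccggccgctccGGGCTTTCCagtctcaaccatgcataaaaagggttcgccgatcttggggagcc
CXCL8 (chr4:73740449-73740568, strand +): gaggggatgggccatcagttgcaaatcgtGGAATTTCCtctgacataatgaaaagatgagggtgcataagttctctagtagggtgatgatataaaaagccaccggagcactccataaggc
CCL20 (chr2:227813722-227813841, strand +): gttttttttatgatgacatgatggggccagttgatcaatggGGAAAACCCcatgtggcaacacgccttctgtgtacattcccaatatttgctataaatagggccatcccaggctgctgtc
CXCL1, CXCL2 and CXCL3 hold 2 matches each that do not overlap, the first starting 77 or 78 bases and the second 53 bases before the start. CXCL8 has 1 match, which starts at 91 bases, and CCL20 has 1 at 79. Of the 10 tested chemokines 7 had a promoter entry and 5 held the motif in the 250 bases before the start, against 5.48% of all 35116 promoter entries, of which 0.231% held 2 or more. A match describes letters, not a bound site.

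Most genes of the interleukin-1 family were lower in KOd 3D, agonists and an antagonist among them. IL-1 and IL-36 cytokines signal through MyD88 to NF-κB and are made by keratinocytes and by inflamed tumour cells. Of 16 tested genes 12 fell and 3 rose (median -2.00). IL1B, the main secreted agonist, had 15.5, 17.2 and 10.4 CPM in KOd 3D, 213, 216 and 208 CPM in labelled KOs 3D and 6.2, 5.88 and 4.11 CPM in wt 3D (-3.89 ± 0.20, adjusted p = 1.42e-10). IL1A (-1.54) and IL36B (-3.76), agonists of the family, fell as well. The receptor antagonist IL36RN had 21.9, 22.1 and 4.38 CPM in KOd 3D and 390.1, 382 and 371 CPM in labelled KOs 3D (-4.56 ± 0.40, adjusted p = 2.36e-07), and KOd replicate C was the lowest of the 3. The signalling receptor IL1R1 had 146, 141 and 126 CPM in KOd 3D and 352, 348 and 322 CPM in labelled KOs 3D (-1.31 ± 0.12, adjusted p = 1.12e-07), and wt 3D lay with KOd at 152, 156 and 156 CPM. IL18, which is matured by caspase-1, went the other way with 24.4, 22.8 and 21.1 CPM in KOd 3D and 10.2, 9.94 and 9.5 CPM in labelled KOs 3D (1.21 ± 0.11, adjusted p = 1.1e-07).

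Of 17 tested genes in the list of the IL-6 family and colony-stimulating factors 9 fell and 2 rose (median -0.66). The 9 include IL24 (-5.50), named above, which is of the IL-10 family. CSF3, which drives neutrophil production, had 0.917, 1.18 and 1.89 CPM in KOd 3D, 33.8, 31.4 and 36.8 CPM in labelled KOs 3D and 0.484, 0.571 and 0.244 CPM in wt 3D (-4.68 ± 0.35, adjusted p = 1.33e-08). IL6 had 12.6, 10.6 and 14.9 CPM in KOd 3D and 52, 54.3 and 53.9 CPM in labelled KOs 3D (-2.07 ± 0.24), and LIF, which signals through gp130, had 7.09, 7.38 and 6.83 CPM in KOd 3D and 60.5, 62.7 and 64.8 CPM in labelled KOs 3D (-3.14 ± 0.21). KOd was the lower pool for CSF3, IL6 and LIF without overlap, which 66.5% of all tested genes also lacked and the naming rule required of CSF3. IL6R, the ligand-binding receptor of IL-6, was 1 of the 2 that rose, at 1.43.

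Acute phase and calprotectin genes, which encode antimicrobial and serum proteins of inflammation, included 13 that fell and none that rose of 21 tested (median -1.42). SAA1, serum amyloid A, had 57.1, 54.6 and 86.5 CPM in KOd 3D, 516, 511 and 526 CPM in labelled KOs 3D and 3, 3.33 and 3.8 CPM in wt 3D (-2.97 ± 0.24, adjusted p = 3.37e-08). SAA1 and its close copy SAA2 (-2.94) may share reads. PI3, the elastase inhibitor elafin, had 10.2, 11.8 and 24.7 CPM in KOd 3D, 370.0, 370.0 and 360.1 CPM in labelled KOs 3D and 0.84, 0.504 and 0.732 CPM in wt 3D (-4.56 ± 0.29), and CHI3L1, a chitinase-like secreted protein, had 319, 313 and 579.7 CPM in KOd 3D, 2668, 2584 and 2629 CPM in labelled KOs 3D and 8.46, 8.03 and 73.6 CPM in wt 3D (-2.70 ± 0.59, adjusted p = 0.00107). For SAA1, PI3 and CHI3L1 KOd stood between the other 2 groups. LCN2, the siderophore-binding lipocalin, fell by 4.23. The calprotectin subunits S100A8 (-0.42) and S100A9 did not pass the test: S100A9 had 492, 608 and 1034 CPM in KOd 3D, 956, 885 and 926 CPM in labelled KOs 3D and 16.5, 15.4 and 17.4 CPM in wt 3D (adjusted p = 0.192), so both pools were above wt and overlapped each other.

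Of 18 NF-κB subunits and feedback genes 6 fell and 1 rose (median -0.17). TNIP1, a ubiquitin-binding inhibitor of the pathway, had 184, 169.5 and 229 CPM in KOd 3D and 476, 464 and 478 CPM in labelled KOs 3D (-1.28 ± 0.15, adjusted p = 2.26e-06), and the anti-apoptotic BIRC3 rose (0.96 ± 0.11, adjusted p = 1.85e-06). The subunits RELA (0.23), RELB (0.06) and NFKB1 (-0.11) did not pass the test, while NFKB2 fell (-0.46). Leukocyte markers moved with these inflammatory lists. Their summed level over 20 genes, per 1000000 of the library total, was 45.9 to 64.3 in KOd 3D, 269 to 283 in labelled KOs 3D and 23.9 to 25.1 in wt 3D, and of 10 tested members 7 fell and 3 rose. CD68, a lysosomal protein of macrophages that other cells express too, was the largest part of the sum in labelled KOs 3D, with 32.1, 29.1 and 28.6 CPM in KOd 3D and 194, 183 and 184 CPM in labelled KOs 3D. The T cell marker CD3E was at or near 0 in both pools, and PTPRC, the pan-leukocyte antigen, went the other way with 2.44, 2.27 and 1.96 CPM in KOd 3D and 0.392, 0.1 and 0.278 CPM in labelled KOs 3D. The part of such cells in the inflammatory differences was not tested. Summed endothelial markers were 180 to 195 in KOd 3D, 124 to 134 in labelled KOs 3D and 138 to 148 in wt 3D on the same scale. PECAM1 alone was at 97.4 to 101 in KOd 3D and 33 to 38.4 in labelled KOs 3D, while CDH5 was at most 0.0268 in either. Neural markers summed to 128 to 137 in KOd 3D, 132 to 141 in labelled KOs 3D and 188 to 216 in wt 3D. Among them SNAP25 was at 1.08 to 1.93 in KOd 3D and 9.01 to 9.61 in labelled KOs 3D.

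Metallothioneins, small cysteine-rich proteins that bind zinc and copper and are induced by metals through the factor MTF1, were lower in KOd 3D. Of 10 tested members of the list 8 fell and none rose (median -2.15). MT2A had 171, 185 and 264 CPM in KOd 3D, 706, 662 and 680.1 CPM in labelled KOs 3D and 237, 214 and 321 CPM in wt 3D (-1.72 ± 0.16, adjusted p = 1.75e-07). MT1X had 19.6, 21.4 and 24.3 CPM in KOd 3D, 143, 135 and 137 CPM in labelled KOs 3D and 18.7, 17.4 and 29.7 CPM in wt 3D (-2.67 ± 0.18, adjusted p = 3.85e-09). In both genes KOd overlapped wt and labelled KOs stood above both. MT1E (-2.55) and MT1F (-3.73) fell in the same way, MTF1 itself fell slightly (-0.36), and the zinc exporter SLC30A1 did not pass the test (0.13). The genes of this cluster are near-identical copies, so reads may be split among them. Median transcript length in the list was 429 bases, and the median after subtracting that of genes of like length and GC content was -1.90.

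The promoters of MT1X and MT2A carry repeated metal response elements, which is why they are shown. Capitals mark matches to TGCACNC or TGCGCNC on either strand in the 160 and 180 bases before the start (RefSeq, GRCh38.p14).
MT1X (chr16:56682310-56682469, strand +): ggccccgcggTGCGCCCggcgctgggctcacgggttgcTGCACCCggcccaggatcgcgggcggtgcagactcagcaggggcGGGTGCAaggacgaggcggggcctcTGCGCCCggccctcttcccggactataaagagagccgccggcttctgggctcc
MT2A (chr16:56608404-56608583, strand +): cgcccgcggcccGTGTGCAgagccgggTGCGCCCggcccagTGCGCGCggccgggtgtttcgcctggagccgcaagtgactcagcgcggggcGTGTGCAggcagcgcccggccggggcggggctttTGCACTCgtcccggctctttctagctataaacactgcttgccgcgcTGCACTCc
MT1X held 4 matches, starting 150, 122, 78 and 53 bases before the start, and MT2A held 6 matches in the stretch shown, starting at 168, 153, 139, 88, 54 and 8 bases. Of all 35116 promoter entries 24.8% held at least 1 match in 250 bases and 0.37% held 4 or more. Of the 10 tested list members 5 had an entry and 4 of these held a match: MT1H, MT1X, MT2A and SLC30A1.

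The enzymes around NNMT were also compared. Of 20 tested genes of NAD and nicotinamide metabolism 9 fell and 4 rose (median -0.46). AOX1 had 4.98, 3.99 and 2.77 CPM in KOd 3D, 73.1, 71.1 and 68.2 CPM in labelled KOs 3D and 4.39, 4.43 and 2.09 CPM in wt 3D (-4.17 ± 0.21, adjusted p = 1.26e-10). Labelled KOs was the high group and KOd overlapped wt. NAMPT, the rate-limiting enzyme of NAD salvage, fell (-0.93), as did the tryptophan-degrading IDO1 (-4.31) and SLC12A8 (-1.57), described in mice as a carrier of nicotinamide mononucleotide, whereas the NAD-dependent deacetylase SIRT1 rose (0.79 ± 0.10, adjusted p = 3.38e-06). In the methionine and S-adenosylmethionine list 6 of 16 fell and 3 rose (median -0.10). MAT2A, which makes S-adenosylmethionine, did not pass the test (0.03), its regulatory partner MAT2B rose (0.52 ± 0.08), and AHCY, which removes S-adenosylhomocysteine, fell (-0.34 ± 0.06). The histone methyltransferase EZH2 had 15.5, 15.5 and 17.9 CPM in KOd 3D and 31.1, 35 and 33.6 CPM in labelled KOs 3D (-1.03 ± 0.15, adjusted p = 3.1e-05), and labelled KOs was above wt 3D (19.2, 21.6 and 12.2 CPM).

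Cell-cycle genes were lower in KOd 3D almost without exception. Mitosis and spindle genes, which are transcribed in G2 and drive chromosome segregation, included 35 of 36 that fell and none that rose (median -1.23). KIF2C, a kinesin that depolymerises microtubules at the centromere, had 28.9, 28.4 and 29.4 CPM in KOd 3D, 101, 107 and 105 CPM in labelled KOs 3D and 55.3, 51.5 and 32.8 CPM in wt 3D (-1.85 ± 0.14, adjusted p = 1.33e-08). CDC20, the activator of the anaphase-promoting complex, had 46.1, 51.1 and 57.5 CPM in KOd 3D and 140.1, 147 and 145 CPM in labelled KOs 3D (-1.48 ± 0.15, adjusted p = 4.56e-07). All 36 genes had KOd and labelled KOs values that did not overlap, against 66.5% of all tested genes. PTTG1 (securin, -1.39), KIF20A (-1.49) and KIF4A (-1.35) fell by a similar amount.

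Replication and G1/S genes gave 38 that fell and none that rose of 42 (median -0.92). MCM6, a subunit of the replicative helicase, had 51.5, 55.4 and 60.7 CPM in KOd 3D, 122, 122 and 119.5 CPM in labelled KOs 3D and 68, 68.1 and 53.2 CPM in wt 3D (-1.12 ± 0.13, adjusted p = 1.47e-06), and MCM2, another subunit, had 68.6, 69.2 and 78 CPM in KOd 3D and 163, 159.9 and 165 CPM in labelled KOs 3D. For MCM6 KOd overlapped wt and labelled KOs stood above both. Set against wt 3D, whose libraries both comparisons share, the median of the mitosis list was -0.49 in KOd 3D and 0.68 in labelled KOs 3D, and that of the replication list was -0.04 in KOd 3D and 0.92 in labelled KOs 3D. TYMS, thymidylate synthase, had 47.8, 52.7 and 55 CPM in KOd 3D and 110.4, 111 and 110.5 CPM in labelled KOs 3D (-1.09 ± 0.15), and 9 of 13 genes of one-carbon and serine synthesis fell while PSAT1 rose (0.84).

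Many promoters of mitotic genes carry a CHR element near the start, the site through which the DREAM and MuvB complexes act. It is shown for CCNB2 (-1.29), PLK1 (-1.16) and KIF4A (-1.35), with matches to TTTGAA or TTCGAA on either strand in capitals in the 80 bases before the start (RefSeq, GRCh38.p14).
CCNB2 (chr15:59105066-59105145, strand +): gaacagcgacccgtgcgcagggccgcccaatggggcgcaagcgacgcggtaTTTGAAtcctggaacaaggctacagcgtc
PLK1 (chr16:23678809-23678888, strand +): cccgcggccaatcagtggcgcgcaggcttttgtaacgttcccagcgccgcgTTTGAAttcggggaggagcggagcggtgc
KIF4A (chrX:70290024-70290103, strand +): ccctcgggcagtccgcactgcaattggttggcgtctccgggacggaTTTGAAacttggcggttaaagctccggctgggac
The match starts 29 bases before the start in CCNB2 and PLK1 and 34 bases before it in KIF4A. Of the 36 tested mitotic genes 30 had a promoter entry and 18 of them held the motif in 250 bases, against 14.3% of all 35116 entries.

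Targets of p53, the tumour suppressor that halts the cycle or kills the cell after damage, moved in the opposite direction to the cycle genes. Of 26 tested members 15 rose and 3 fell (median 0.77). CDKN1A, which encodes the cyclin-dependent kinase inhibitor p21, had 304, 314 and 438 CPM in KOd 3D, 111, 112 and 113 CPM in labelled KOs 3D and 201, 188 and 276 CPM in wt 3D (1.65 ± 0.17, adjusted p = 3.93e-07). MDM2, the ubiquitin ligase that limits p53, had 125, 123 and 159 CPM in KOd 3D, 61.4, 62.8 and 58.9 CPM in labelled KOs 3D and 75.4, 85.3 and 78.5 CPM in wt 3D (1.15 ± 0.09, adjusted p = 2.78e-08). For MDM2 KOd was above wt as well as above labelled KOs. ZMAT3, a p53-induced RNA-binding protein, had 83.2, 79.5 and 70.4 CPM in KOd 3D and 21.7, 21.1 and 19.1 CPM in labelled KOs 3D (1.91 ± 0.08), and RRM2B, the p53-inducible ribonucleotide reductase subunit, had 59.4, 65 and 69.8 CPM in KOd 3D and 22.4, 24.4 and 22 CPM in labelled KOs 3D (1.50 ± 0.09). Not all members took part: the pro-apoptotic BAX fell (-0.46) and GDF15 did not pass the test (0.04).

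**Figure D2:**
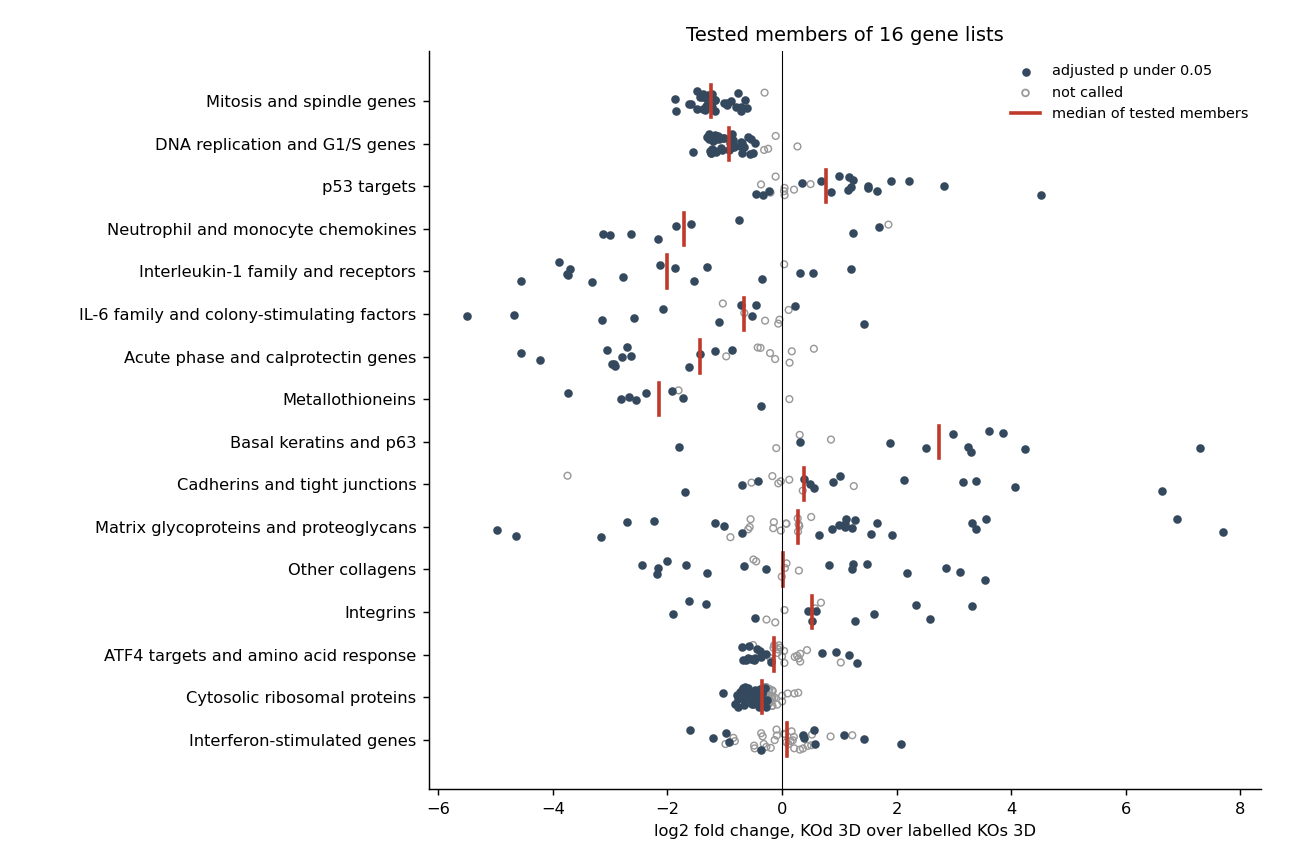
Log2 fold change of KOd 3D over labelled KOs 3D for the tested members of 16 gene lists, filled where the adjusted p was under 0.05, with a red bar at each median. Mitosis (median -1.23) and replication genes (median -0.92) are narrow groups, the mitosis genes wholly and the replication genes mostly left of 0 (highest 0.27), while basal keratins (median 2.74) and matrix genes spread widely.

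Basal epithelial genes were higher in KOd 3D than in labelled KOs 3D. Basal keratins and p63 mark the outer layer of the mammary duct, and p63 (TP63) is the transcription factor that maintains it. Of 14 tested members 10 rose and 1 fell (median 2.74). KRT5, a keratin of basal cells, had 23.2, 21.4 and 60.5 CPM in KOd 3D, 0.319, 0.15 and 0.185 CPM in labelled KOs 3D and 20.3, 20.2 and 23.9 CPM in wt 3D (7.30 ± 0.81, adjusted p = 1.18e-06). KRT17 had 149, 139 and 284 CPM in KOd 3D, 19.8, 19.4 and 21.3 CPM in labelled KOs 3D and 380.3, 312 and 473 CPM in wt 3D (3.24 ± 0.34, adjusted p = 7.23e-07). KOd replicate C was the highest KOd library for both keratins, and for KRT17 all KOd libraries were below wt. TP63 had 210.0, 198 and 246 CPM in KOd 3D, 61.4, 57.4 and 57.8 CPM in labelled KOs 3D and 243, 251 and 289 CPM in wt 3D (1.89 ± 0.23, adjusted p = 3.32e-06), its relative TP73 rose by 3.85 and KRT16 by 3.62. KRT23 was the member that fell (-1.80). The list's median against wt 3D was 0.16 in KOd 3D and -2.23 in labelled KOs 3D.

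Of 21 cadherin and junction genes 10 rose, 3 fell and 8 did not pass the test (median 0.38). CDH3, which encodes P-cadherin of basal cells, had 16, 14.7 and 30.8 CPM in KOd 3D, 0.172, 0.175 and 0.255 CPM in labelled KOs 3D and 23.3, 21.4 and 29.1 CPM in wt 3D (6.64 ± 0.37, adjusted p = 3.33e-10). The desmosomal linker DSP had 5.93, 5.69 and 7.67 CPM in KOd 3D and 0.27, 0.451 and 0.417 CPM in labelled KOs 3D (4.07 ± 0.26), and the tight junction protein CLDN1 had 28.8, 27 and 36.8 CPM in KOd 3D and 3.26, 3.38 and 3.71 CPM in labelled KOs 3D (3.16 ± 0.28). The classical cadherin CDH2 did not pass the test (-0.06), and CDH24 fell (-1.70 ± 0.17). Mesenchymal markers and regulators of the epithelial-mesenchymal transition had 3 of 22 members higher and 5 lower (median 0.05). TWIST2, a transcription factor of mesenchyme, had 14.2, 16.1 and 17.7 CPM in KOd 3D and 28.1, 27.1 and 28.3 CPM in labelled KOs 3D (-0.80 ± 0.11), and the fibroblast protease FAP had 2.96, 4.31 and 1.51 CPM in KOd 3D and 9.65, 10.5 and 9.36 CPM in labelled KOs 3D (-1.74 ± 0.31).

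Matrix genes differed in both directions. Among matrix glycoproteins and proteoglycans 16 of 38 rose and 8 fell (median 0.29). MGP, an inhibitor of calcification, had 640.4, 694 and 662 CPM in KOd 3D, 68.3, 68.2 and 64.6 CPM in labelled KOs 3D and 446, 481 and 410.5 CPM in wt 3D (3.31 ± 0.25, adjusted p = 1.68e-08). BGN, the small proteoglycan biglycan, had 85.2, 74.5 and 179 CPM in KOd 3D and 10.9, 10.8 and 10.8 CPM in labelled KOs 3D (3.38 ± 0.26, adjusted p = 1.87e-08), although its relative decorin was among the largest falls and LUM, lumican, fell by 2.70. Biglycan and decorin are thus small leucine-rich proteoglycans that differed in opposite directions. Of 10 fibrillar collagen genes 3 rose and 3 fell, and of 22 other collagens 8 rose and 8 fell. COL1A1, the main chain of type I collagen, had 84.2, 73.6 and 75.3 CPM in KOd 3D, 29.4, 31.8 and 34.1 CPM in labelled KOs 3D and 4045, 3517 and 5437 CPM in wt 3D (1.29 ± 0.20, adjusted p = 5.96e-05), so both pools were far below wt. In the type IV collagens of basement membrane COL4A1 (-2.18) and COL4A2 (-2.44) fell, while COL4A3 (2.19), COL4A4 (3.10), COL4A5 (1.24) and COL4A6 (1.22) rose.

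Receptors and proteases of the matrix also split. Of 17 integrin subunits 8 rose and 4 fell (median 0.52). ITGB3, the vitronectin receptor subunit, had 63.7, 56.2 and 39.5 CPM in KOd 3D and 202, 204 and 189 CPM in labelled KOs 3D (-1.90 ± 0.15), and ITGA5, the fibronectin receptor subunit, had 214, 190.1 and 225 CPM in KOd 3D and 520.4, 534 and 523 CPM in labelled KOs 3D (-1.33 ± 0.13). Both fell while fibronectin itself was higher. The laminin receptor subunits ITGB4 (2.33), ITGA6 (0.52) and ITGA3 (0.59) rose. Among laminins and other basement membrane genes 6 of 15 rose, such as LAMA1 (2.60) and the heparan sulfate proteoglycan HSPG2 (1.52), and 2 fell, LAMB3 (-1.05) and LAMA3 (-0.79). Of 35 matrix proteases and inhibitors 12 fell and 6 rose (median -0.23): the interstitial collagenase MMP1 (-3.23) fell, whereas the plasminogen activator PLAT had 316, 305 and 452 CPM in KOd 3D and 67.7, 70.4 and 70.1 CPM in labelled KOs 3D (2.37 ± 0.17, adjusted p = 6.48e-09).

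Guidance and growth factor genes were called in both directions, as were all tested genes (23.9% higher and 23.3% lower). Of 40 semaphorin, netrin, Slit and ephrin genes 18 rose and 9 fell (median 0.35). PLXNA2, a semaphorin receptor, had 36.2, 32.1 and 35.7 CPM in KOd 3D, 2.92, 3.75 and 3.01 CPM in labelled KOs 3D and 56.9, 57.9 and 41.4 CPM in wt 3D (3.42 ± 0.25, adjusted p = 1.09e-08). NRP2, a co-receptor of semaphorins and VEGF-C, had 4.98, 5.3 and 3.05 CPM in KOd 3D, 39.2, 41.4 and 39.6 CPM in labelled KOs 3D and 5.81, 7.02 and 6.27 CPM in wt 3D (-3.17 ± 0.19, adjusted p = 1.2e-09). These 2 receptors differed in opposite directions, and in both KOd was the pool nearer to wt and lay below it. Of 36 Wnt pathway genes 11 rose and 4 fell (median 0.05), among them the R-spondin receptor LGR6 (3.33), the receptor FZD8 (1.71) and the ligand WNT7B (-1.60). In the EGFR family and its ligands 7 of 15 rose and 1 fell: the ligand NRG4 rose by 2.36 and HBEGF fell by 1.31. Without KOd 3D replicate A 4 of the EGFR list rose. BMP4 had 17.6, 17.7 and 15.2 CPM in KOd 3D and 1.86, 2.6 and 2.27 CPM in labelled KOs 3D (2.90 ± 0.26), and 9 of 26 genes of the BMP list rose and 6 fell.

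Stem cell markers used for breast tumours gave 7 of 15 higher and 2 lower (median 0.28). CD44 did not pass the test (0.20) and BMI1, a polycomb protein, rose (0.83 ± 0.07, adjusted p = 1.02e-07). Among the aldehyde dehydrogenases behind the Aldefluor assay ALDH1A3 had 2.08, 2.11 and 1.79 CPM in KOd 3D, 5.29, 5.86 and 5.74 CPM in labelled KOs 3D and 0.0646, 0.134 and 0.0697 CPM in wt 3D (-1.50 ± 0.23, adjusted p = 3.48e-05), whereas ALDH3A1 had 61, 60.8 and 128 CPM in KOd 3D and 2.6, 2.35 and 2.71 CPM in labelled KOs 3D. These 2 enzymes differed in opposite directions, and ALDH1A3 was above wt in both pools.

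Among imprinted and germline genes, MEST and H19 were much higher in KOd 3D than in labelled KOs 3D. MEST, a paternally expressed hydrolase gene, had 3.97, 5.56 and 4.69 CPM in KOd 3D, 0.098, 0 and 0.0232 CPM in labelled KOs 3D and 44.9, 46.6 and 62.7 CPM in wt 3D, so it was nearly absent in labelled KOs and low in KOd. H19 had 44.2, 39.3 and 102 CPM in KOd 3D, 2.28, 2.45 and 2.62 CPM in labelled KOs 3D and 41.1, 44.1 and 80 CPM in wt 3D (4.66 ± 0.50, adjusted p = 7.84e-07). Of 17 imprinted genes 5 rose and none fell, so 29.4% were called, against 47.2% of all tested genes. The other 12, among them PEG10 (-0.04) and GNAS (0.22), did not pass the test. Without the 3 libraries that stood apart (KOd 3D replicate C, wt 3D replicate C and labelled KOs 2D replicate A) 9 rose. Of 22 cancer-testis antigens 11 fell and 1 rose (median -0.57). The 1 that rose, MAGEC1, had 10.5, 10.5 and 11.9 CPM in KOd 3D, 3.43, 3.23 and 2.94 CPM in labelled KOs 3D and 171, 173 and 171 CPM in wt 3D. XAGE1A and XAGE1B are copies with identical counts in every library, at 31.2, 30.3 and 34.4 CPM in KOd 3D and 97.2, 101 and 96.4 CPM in labelled KOs 3D (-1.62 ± 0.09), and were counted as separate genes in the table.

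Of 25 HLA and antigen presentation genes 5 rose and 4 fell (median 0.08). The 5 that rose belong to class II: HLA-DPA1 (1.33), HLA-DRB1 (1.66), HLA-DPB1 (1.82), HLA-DRA (2.12) and the invariant chain CD74 (1.97). CD74 had 54.8, 51 and 137 CPM in KOd 3D, 21.4, 20.6 and 19.9 CPM in labelled KOs 3D and 4.13, 3.02 and 9.62 CPM in wt 3D, and KOd replicate C was its highest library. Of class I, HLA-B (0.04) and HLA-C (0.08) did not pass the test. Without KOd 3D replicate C or without labelled KOs 3D replicate C 3 of the list rose, and 11 rose with only the groups compared in the fit. Of 42 interferon-stimulated genes 7 rose and 5 fell (median 0.09), with OAS1 (2.08) and IFI44L (1.43) higher and GBP1 (-0.97) lower. With only the 2 groups compared in the fit 15 rose and 11 fell.

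Of 77 ribosomal protein genes tested 43 fell and none rose (median -0.35). Gene length moved with the pool difference: the median log2 fold change over all tested genes was -0.2 in the shortest of 5 length bins and 0.15 in the longest, and it was 0.32 in the 1 of 5 bins with the lowest GC content and -0.11 in that with the highest. The ribosomal list had a median length of 907 bases and a median of -0.20 after subtracting that of genes of like length and GC content. With offsets for length and GC content 25 fell, without KOd 3D replicate A 25 fell, and without the 3 libraries that stood apart 72 fell. Of 58 nuclear genes of the respiratory chain 26 fell and 4 rose (median -0.21), with a median of -0.01 relative to genes of like length and GC content and 14 that fell with the offsets. SDHD, a subunit of complex II on chromosome 11, stood out with 69.7, 82.9 and 75.3 CPM in KOd 3D and 21.9, 22.9 and 21.7 CPM in labelled KOs 3D (1.78 ± 0.09, adjusted p = 1.13e-10).

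Other metabolic and stress lists were mixed in 3D. Of 35 glycolysis and hypoxia genes 13 fell and 3 rose (median -0.20), with hexokinase HK2 at 67, 61.5 and 57.2 CPM in KOd 3D and 172, 169 and 170.4 CPM in labelled KOs 3D (-1.46 ± 0.14, adjusted p = 2.24e-07) and the aldolase ALDOC higher (2.76). Of 29 NRF2 targets and redox enzymes 10 rose and 5 fell (median 0.18), with the aldo-keto reductase AKR1B10 at 47.1, 45 and 42.4 CPM in KOd 3D and 4.71, 5.18 and 4.79 CPM in labelled KOs 3D (3.19 ± 0.41). Without the 3 libraries that stood apart 9 of the NRF2 list fell. Of 32 genes of cholesterol and fatty acid synthesis 1 rose and 3 fell (median -0.17). Of 37 ATF4 targets, which respond to amino acid shortage, 4 rose and 13 fell (median -0.14), and 9 rose without the 3 libraries that stood apart. The amino acid transporter SLC38A2 (1.31 ± 0.12) rose, while ATF4 itself fell (-0.44 ± 0.09, adjusted p = 0.000933). Of 24 cytosolic heat shock chaperones 6 rose and 7 fell (median -0.06), and HSP90AA1, the inducible HSP90, had 1133, 1169 and 1188 CPM in KOd 3D and 2021, 1978 and 1909 CPM in labelled KOs 3D (-0.76 ± 0.15).

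The same 2 pools were compared in adherent culture, with 3 other libraries each. Depth again separated the groups completely, at 27446415 to 28096404 counts in KOd 2D and 39789580 to 43744817 in labelled KOs 2D. The rRNA share was 5.27% to 6.79% in KOd 2D and 0.926% to 2.7% in labelled KOs 2D. The median log2 fold change in 2D was -0.33 in the shortest of 5 length bins and 0.26 in the longest. In a difference shared by both cultures, the pool and whatever set these library traits cannot be told apart. KOd 2D was higher for 4704 genes (28.8% of those tested) and lower for 5017 (30.7%). With library totals as the only scaling 59.8% of the called genes were higher, against 48.4% with TMM, and the median over all genes was 0.12, against -0.034 with TMM. Of the 3D calls 54.2% were also called in 2D in the same direction, which is 43% of the 2D calls, and 930 genes were called in opposite directions. Taken gene by gene, and genes do not count as replicates, the fold changes in 2D and 3D of 16323 genes gave Pearson's r = 0.357 and Spearman's rho = 0.381. The pool difference itself differed between cultures (interaction) in 6758 genes (41.4%), of which 50.6% were positive, and 35.9% with library totals alone. Among the 3D calls 46.9% had an interaction. Labelled KOs 2D replicate A differed from its replicates by 0.357 and 0.426, and without it 7965 genes had an interaction.

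NNMT was lower in KOd in both cultures, at -4.54 ± 0.21 in 2D, and its interaction of 0.50 ± 0.27 did not pass the test (adjusted p = 0.146). SAA1 (2D -2.70 ± 0.25), KIF20A (2D -1.48 ± 0.12), MCM6 (2D -1.05 ± 0.13), TP63 (2D 1.77 ± 0.24) and IL1R1 (2D -1.59 ± 0.12) also differed in both cultures in the same direction, with interaction p-values that missed the threshold, which does not show equal differences. KIF20A and MCM6 do not stand for their lists. In 2D 16 of the 36 mitosis genes fell and 7 rose (median -0.28), and 26 had an interaction. Of the 42 replication genes 17 fell and 6 rose in 2D (median -0.27), and 26 had an interaction. Other genes reversed. CXCL1 had 0.858, 0.733 and 1 CPM in KOd 2D and 0.0955, 0.107 and 0.0568 CPM in labelled KOs 2D, a log2 fold change of 3.25 ± 0.32 that is opposite to that in 3D (interaction -6.25 ± 0.35, adjusted p = 2.25e-09). EZH2 had 84.2, 87.2 and 88.9 CPM in KOd 2D and 30, 38.2 and 40 CPM in labelled KOs 2D (1.27 ± 0.15), also opposite to 3D (interaction -2.30 ± 0.21, adjusted p = 3.95e-07). CTH, which makes cysteine from cystathionine, had 77.1, 86.3 and 96.5 CPM in KOd 2D and 11.8, 6.76 and 7.86 CPM in labelled KOs 2D, against 3.91, 4.25 and 2.66 CPM in KOd 3D and 7.62, 7.91 and 7.13 CPM in labelled KOs 3D. The ATF4 list as a whole had 37 of 37 members higher and a median of 1.61 in 2D, beside its median of -0.14 in 3D, and 32 of its members had an interaction.

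Several of the genes that separated the pools most in 3D were barely detected in 2D in either pool. ELN had 0.583, 0.349 and 0.621 CPM in KOd 2D and 0.287, 0.107 and 0.0568 CPM in labelled KOs 2D (1.70 ± 0.86, adjusted p = 0.0998). FAT2 had 0.103, 0.105 and 0.172 CPM in KOd 2D and 0.263, 0 and 0.369 CPM in labelled KOs 2D, and CDH3 had 0.0343, 0.14 and 0.207 CPM in KOd 2D and 0.143, 0.0537 and 0.199 CPM in labelled KOs 2D. A difference in 2D was not detectable at this depth for these 3 genes, and their interactions rest on low 2D levels. CXCL1 differed in 2D without overlap, at levels of at most 1 CPM. KRT17 was detected at 1.61, 1.78 and 2.1 CPM in KOd 2D and 8.69, 1.82 and 4.71 CPM in labelled KOs 2D, where the libraries overlapped and the fit gave a lower level in KOd (-1.48 ± 0.42, adjusted p = 0.00561). MGP was lower in KOd in 2D too, with 37.7, 41.5 and 28.1 CPM in KOd 2D and 107, 46.2 and 57 CPM in labelled KOs 2D (-0.97 ± 0.24), the opposite of 3D (interaction 4.28 ± 0.34, adjusted p = 7.78e-08). The basal keratin list had a median of -0.60 in 2D and of 2.74 in 3D.

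**Figure D3:**
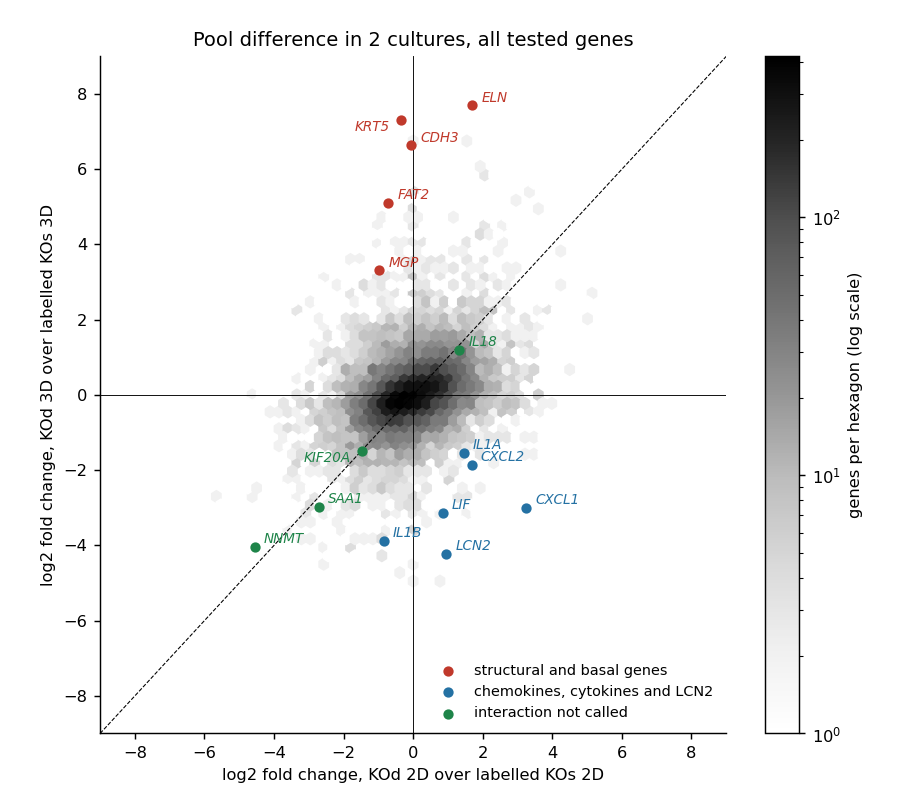
Log2 fold change of KOd over labelled KOs in 2D (horizontal) and in 3D (vertical) for 16323 tested genes as hexagons shaded by gene number, with named genes as coloured points and a dashed line of equal change. ELN, KRT5 and CDH3 lie high in 3D, at 7.70, 7.30 and 6.64, CXCL1 lies at the lower right, and NNMT, SAA1, KIF20A and IL18 lie near the dashed line.

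Around NNMT 12 other genes within 1 Mb were tested on chromosome 11, of which 7 rose, 2 fell and 3 did not pass the test. RBM7 (0.97 ± 0.11), USP28 (1.08 ± 0.09), TTC12 (1.12 ± 0.13), ZW10 (0.75 ± 0.13) and ZBTB16 (2.22 ± 0.28) were higher in KOd 3D. USP28, a deubiquitinase, had 45, 42.8 and 43.4 CPM in KOd 3D, 20.4, 22.2 and 19.5 CPM in labelled KOs 3D and 46.2, 46.2 and 49 CPM in wt 3D, so labelled KOs was below both others. NCAM1, an adhesion molecule of neurons and NK cells, had 0.122, 0.0959 and 0.035 CPM in KOd 3D, 5.32, 5.26 and 5.24 CPM in labelled KOs 3D and 0.129, 0.202 and 0.139 CPM in wt 3D (-5.87 ± 0.61, adjusted p = 6.03e-07), and the serotonin receptor subunit HTR3A fell as well (-2.52 ± 0.35). The dopamine receptor gene DRD2 had 4.09, 4.03 and 3.4 CPM in KOd 3D, 0.049, 0.25 and 0.347 CPM in labelled KOs 3D and 4.26, 4.37 and 5.3 CPM in wt 3D (4.12 ± 0.50, adjusted p = 3.14e-06). CADM1, a cell adhesion molecule, was near 0 in both pools, with 0.275, 0.16 and 0.035 CPM in KOd 3D and 0, 0.0501 and 0 CPM in labelled KOs 3D, and had 58.8, 62.6 and 41.3 CPM in wt 3D. REXO2, an oligoribonuclease, had 63.3, 73.3 and 80.1 CPM in KOd 3D and 76.3, 74.8 and 72.4 CPM in labelled KOs 3D and did not pass the test (-0.04 ± 0.11).

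The pool difference was also summarised by position, and the windows named here are the extremes. Of 284 windows of 10 Mb with at least 15 tested genes, the highest median was 1.27 on chromosome 4 between 160 and 170 Mb, where 21 of 25 genes rose and 1 fell. The next 2 were chromosome 4 between 170 and 180 Mb (1.17, 12 of 16 higher and none lower) and chromosome 1 between 190 and 200 Mb (1.07, 14 of 21 higher and 3 lower). In 2D these 3 windows had medians of 1.54, 1.09 and 0.77. Set against wt 3D, whose libraries both comparisons share, the first had a median of 0.02 in KOd 3D and -1.26 in labelled KOs 3D. The lowest medians were those of chromosome 8 between 130 and 140 Mb (-0.81, 9 of 17 lower and 1 higher) and of chromosome 2 between 130 and 140 Mb (-0.59, 20 of 39 lower and 2 higher) and between 230 and 240 Mb (-0.48, 40 of 70 lower and 6 higher). Their 2D medians were -0.34, -0.82 and -0.76. The window that holds NNMT, on chromosome 11 between 110 and 120 Mb, had a median of 0.22 in 3D and 0.03 in 2D, with 28 of 82 genes higher and 20 lower. Its neighbour between 100 and 110 Mb had a median of 1.03 in 3D and 1.34 in 2D, with 22 of 37 genes higher and 5 lower. DNA copy number was not measured here.

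**Figure D4:**
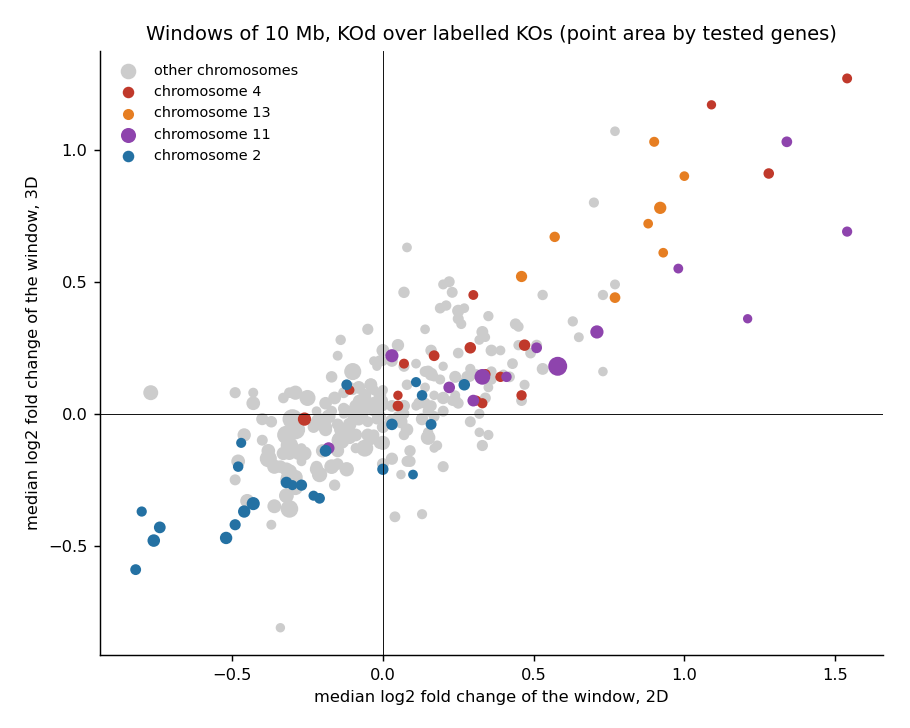
Median log2 fold change of KOd over labelled KOs in 2D (horizontal) and 3D (vertical) for 284 windows of 10 Mb, with point area by the number of tested genes and 4 chromosomes coloured after their values were seen. Windows of chromosomes 4, 11 and 13 reach above 0.5 in both cultures, and those of chromosome 2 lie mostly below 0. Chromosome 1 at 190 to 200 Mb and chromosome 19 at 20 to 30 Mb, in grey, are above 0.5 in both cultures too.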

How the data were processed

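The libraries were stranded TruSeq mRNA libraries, per the labels' protocols. The deposited table holds raw read counts per gene for 20 libraries. The authors' reads were aligned with STAR to hg38, per the submitters' processing notes. The counting tool, its strand setting and the annotation are not given in the sources used here, so antisense and overlapping genes are uncertain. All columns were mapped to samples by their titles. Gene names and places come from RefSeq on GRCh38.p14, which matched 27740 of 27864 gene IDs.

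Counts were fitted with edgeR 4.0.16 in R 4.3.3 (glmQLFit and glmQLFTest, TMM, filterByExpr by group, 1 coefficient per group over all 20 libraries, 13 residual degrees of freedom), with Benjamini-Hochberg adjustment over 16323 genes and a threshold of 0.05. Fold changes are log2 values computed from the deposited counts. The compared libraries held 27810953 to 39944290 counts, and counting error limits the precision of genes with few counts.

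Genes named were NNMT, its tested neighbours within 1 Mb, the 15 largest rises and 15 largest falls (mean log2 CPM of at least 2, no overlap), the 6 largest differences in mean CPM and 6 largest interactions in each direction, and up to 4 members of each list by adjusted p. Other list members were named after their values were seen. The comparison, the gene lists and the motifs were chosen with earlier results of these data known. Replicate letters were checked for pairing by correlating the deviations of same-letter libraries from their group means. They did not pair KOd 3D with labelled KOs 3D. Same-letter libraries of KOd 3D and wt 3D correlated at 0.21, 0.218 and 0.342, over 0.1 in every pair, which comes from the data and not from the labels. Different letters gave 0.208 (KOd A with wt B) and 0.125 (KOd B with wt A). Pairs of a replicate C with another letter gave -0.3 to -0.221. A pairing of the letters A and B is therefore not shown. The fit of all groups has no block. Alternatives were DESeq2 1.42.0, library totals alone, no and stricter filters, other sets of libraries, a replicate block, thinning to the smallest library total, offsets for length and GC content, and each replicate left out. A few genes are not reported here. The procedure was tested on simulated data.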

Additional observations from a re-analysis of the deposited data

Results flagged for a closer look

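The pool difference (KOd over labelled KOs) differed between tumorspheres and adherent culture, by the interaction term of the edgeR fit at an adjusted p under 0.05, for 106 of the 171 genes named above, of which 54 were positive and 52 negative. These genes were partly chosen for large interactions or large 3D differences, so the share is not set against that of all genes. The adjusted p-values ran up to 0.0495. Every value below is the difference in 3D minus that in 2D on the log2 scale. Libraries of the 2 cultures differ in medium and attachment together, and the cause was not tested.

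The difference was more positive in 3D for KRT5 (7.67), CDH3 (6.69), SPARCL1 (6.51), ELN (6.00), FAT2 (5.81), TREM2 (5.55), H19 (4.95), CAMK2B (4.92) and TSPAN8 (4.79). It was also more positive in 3D for KRT17 (4.72), ALDH3A1 (4.59), MGP (4.28), PLAT (3.81), COL4A4 (3.80), PLXNA2 (3.74), S100A8 (3.47), S100A9 (3.37) and FZD8 (3.06). Smaller gaps of the same sign were found for ALDOC (3.02), PTPRC (2.98), KRT16 (2.90), AKR1B10 (2.85), CX3CL1 (2.79), LAMA1 (2.69), DSP (2.62), TP73 (2.44) and ZMAT3 (2.42). The same sign was seen in ANXA8L1 (2.39), TP53INP1 (2.38), SLITRK6 (2.34), ANXA8 (2.32), BGN (2.31), ADIRF (1.88), NRG4 (1.81) and HSPG2 (1.74). To these come CDKN1A (1.73), COL4A1 (1.55), IL6R (1.25), GBP1 (1.19), COL4A5 (1.17), COL4A2 (1.16), MAT2A (1.11), IFI44L (1.04) and FN1 (0.89). Further genes of this sign were COL4A6 (0.88), HSP90AA1 (0.88), COL1A1 (0.81), ITGA6 (0.76), ITGA3 (0.48), MDM2 (0.45), RRM2B (0.44) and GNAS (0.42). The list ends with MAT2B (0.41) and SDHD (0.36).

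The difference was more negative in 3D for CXCL1 (-6.25), LCN2 (-5.18), POU2F2 (-4.77), CTH (-4.35), CCN4 (-4.31), GNAO1 (-4.11), LIF (-4.00), CSF3 (-3.94) and DCN (-3.93). It was also more negative in 3D for LUM (-3.87), GDF15 (-3.68), CXCL2 (-3.54), NCAM1 (-3.38), PTGS2 (-3.29), NRP2 (-3.24), CXCL3 (-3.16), IL1B (-3.04) and IL1A (-3.00). Smaller gaps of the same sign were found for IL24 (-3.00), AOX1 (-2.81), CCL20 (-2.44), MT1F (-2.38), TFPI2 (-2.34), EZH2 (-2.30), FAP (-2.30), CXCL8 (-2.28) and MT1E (-1.90). The same sign was seen in IL6 (-1.82), CD68 (-1.60), LAMA3 (-1.58), NAMPT (-1.58), PSAT1 (-1.58), LAMB3 (-1.47), BIRC3 (-1.43), TNIP1 (-1.41) and MT1X (-1.39). To these come CDH24 (-1.36), CCNB2 (-1.25), KIF4A (-1.19), NFKB2 (-1.15), ALDH1A3 (-1.10), KIF2C (-1.09), CDC20 (-0.81) and ATF4 (-0.78). Further genes of this sign were NFKB1 (-0.76), HK2 (-0.74), ITGA5 (-0.72), MT2A (-0.72), CDH2 (-0.47), XAGE1A (-0.46), XAGE1B (-0.46) and BMI1 (-0.27).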

How the results depend on the processing

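With the threshold raised to a 2-fold change, 2639 genes differed between KOd 3D and labelled KOs 3D (1491 higher, 1148 lower), 3570 between the pools in 2D (1897 higher, 1673 lower), 2911 in the interaction (1421 positive, 1490 negative), 2113 between KOd 3D and wt 3D (1121 higher, 992 lower) and 3765 between labelled KOs 3D and wt 3D (1803 higher, 1962 lower). With library totals alone, KOd 3D was higher than wt 3D for 4199 genes and lower for 1793.

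Leaving out each replicate in turn gave 6463 to 7188 genes for the pools in 3D (3305 to 3604 higher, 3067 to 3584 lower), 8858 to 10356 in 2D (4331 to 5274 higher, 4518 to 5082 lower) and 5992 to 7965 for the interaction (3033 to 3876 positive, 2944 to 4089 negative). For KOd 3D against wt 3D the range was 4448 to 5370 (2206 to 2670 higher, 2242 to 2703 lower), and for labelled KOs 3D against wt 3D 8051 to 8605 (3942 to 4215 higher, 4109 to 4486 lower).

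The replicate block in the fit of all groups gave 7703 genes, and 9255 with the 2 groups alone, where the fit without a block gave 9568. Same-letter libraries of KOd 3D and labelled KOs 3D deviated from their group means with correlations of -0.086, 0.053 and -0.02, so the letters do not pair them. For KOd 3D against wt 3D the replicate block gave 5590 genes over all groups, against 5548 without it, and 5840 with these groups alone, against 4611 without it. Offsets for length and GC content, added after the data were seen, gave 7016 genes, of which 5907 kept their call, and thinning every library to the smallest library total gave 7602. REXO2 ranged between -0.125 and 0.044 with a replicate left out, changing sign without KOd 3D replicate A, and changed sign to 0.199 with the offsets and to 0.196 with the offsets and the replicate block, and IFIT5 reached -0.001 with the offsets and the block, and the cause was not tested. Depth limits genes below about 1 CPM, which in 2D include ELN, FAT2, CDH3 and CXCL1.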
